A study of Saccharomyces cerevisiae with 8 samples.

Results

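The 186 genes described here are those nearest the chromosome ends of budding yeast, Saccharomyces cerevisiae, out of 6692 rows in the deposited count table (2.78%). On each of the 32 chromosome arms the rows with the 6 highest numbers in their systematic names were taken, since yeast gene names count outward from the centromere. Names with a hyphen suffix were not used, and 6 rows (YAR071W, YHR215W, YHR216W, YHL047C, YOR391C and YPL280W) were dropped. The rule uses names and no expression value, but it was set with earlier results of these data known. In the R64 assembly 153 of the 186 are annotated, at a median of 8033 bp from the chromosome end (52 to 30937 bp). RNA was measured in a wild type and in a strain in which RAD27 had been knocked out, with 2 libraries for each genotype at each temperature. The product of RAD27 is a nuclease that removes 5′ flaps when Okazaki fragments are joined, and the stated purpose was to profile expression when the maturation of those fragments is defective. Overnight YPD cultures at 30 °C were diluted into fresh YPD and kept for 4 h at 30 °C or at 37 °C before harvest. Genotype and temperature together make 4 groups. The sources used here name neither the strain background nor the number of knockout clones. They also do not state separate cultures for the 2 libraries of a group, and p-values then measure only how far these samples spread, which may be technical.

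Yeast chromosomes end in short repeats bound by Rap1, next to which lie X elements and, on some arms, one or more Y′ elements that encode helicase-like proteins. The proteins Sir2, Sir3 and Sir4 bind the repeats through Rap1 and silence genes close to them, and Ku and Rif proteins also act there. Beyond these elements lie families that have spread from end to end as near-identical copies. They include the COS genes, whose membrane proteins help sort cell-surface proteins into multivesicular bodies, the seripauperins of the cell wall, and loci for the use of maltose and other sugars. Arms with few family members carry ordinary single-copy genes close to the end.

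The libraries held 4734266 to 5588983 counts, so that 3 counts stood for 0.537 to 0.634 CPM (counts scaled to library size) before scaling. RAD27 had 479 to 533 counts in the wild type libraries and 0 in each of the 4 knockout libraries. Levels are given as CPM scaled by the trimmed mean of M values (TMM), in the order of the 2 libraries of a group. A change is a log2 fold change ± SE from edgeR's quasi-likelihood test, and it is called at an adjusted p under 0.05 (Benjamini-Hochberg over the 5667 genes tested). In bulk RNA, fewer cells that express a gene and less RNA per cell cannot be told apart.

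Most genes at the chromosome ends gave few counts or none. Of the 186 rows, 51 were at 0 in all 8 libraries, 66 had counts but too few to be tested, and 69 were tested (37.1%, against 86.0% of the other rows). The count minimum was met in all 4 groups by 44 of the 69, in 1 to 3 groups by 21, and by both libraries of no group by 4. A gene that passes through 1 group alone has to be high in that group, so that counts over the 69 say nothing of the other 117. The mean level of the tested members had a median of 13.0 CPM, against 68.1 CPM for all genes tested.

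Whether a row had counts went with how much of its sequence is unique in the genome. Near-identical copies elsewhere (at least 95% identity over at least 50% of the length) were found for 91 of the 153 annotated members, of which 16 were tested, while 52 of the 62 without such a copy were tested. Of the 50-base windows in a gene, the median share found once in the genome was 0% for the 35 annotated members at 0, 13.0% for the 50 with too few counts, and 100% for the 68 tested. At 0 counts, 34 of 35 had under 50% unique windows and 25 had none. How the authors' counting treated reads that match several places is not given in the sources used here, so a level of 0 at a repeated gene cannot be read as silence. Among the tested members, 16 had under 50% unique windows, and their values may include or lack reads of a copy.

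**Figure D1:**
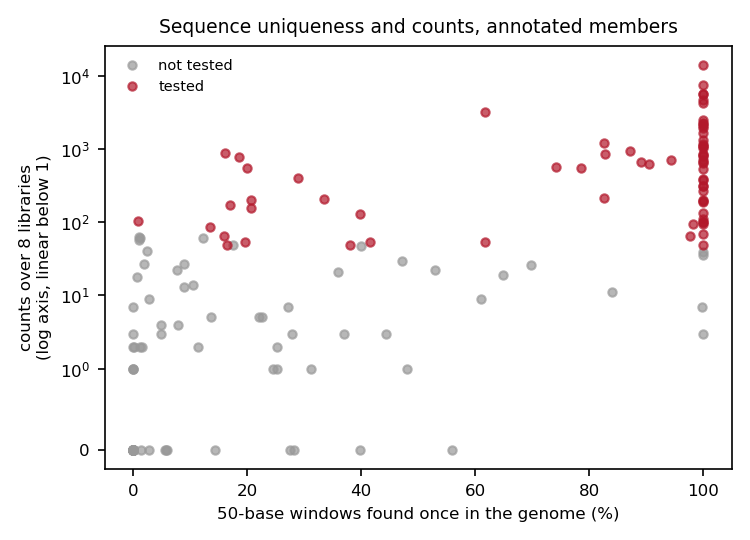
Counts summed over the 8 libraries (log axis, linear below 1) against the share of a gene's 50-base windows found once in the R64 genome, for the 153 annotated members, with tested members in red and the others in grey. Most grey points lie under 50% unique windows, and the median of the tested members is 100%.

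The COS2, COS3 and COS1 genes give an example of counts set beside shared sequence. COS2 and COS3 had 0 counts in every library, have 0% unique windows and are 100% identical to each other over their coding length of 1140 bases. COS1, with 96.1% coding identity to both, has 28.9% unique windows and 399 counts. Why COS2 and COS3 had 0 counts was not tested. The stretch of 60 bases with the most differences between COS1 and COS2 is given here from the RefSeq R64 genome, with capitals at the 7 positions where COS1 differs from COS2 and COS3.
COS1, chrXIV:9173-9232, plus strand: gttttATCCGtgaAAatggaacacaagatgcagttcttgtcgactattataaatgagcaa
COS2, chrII:810583-810642, minus strand: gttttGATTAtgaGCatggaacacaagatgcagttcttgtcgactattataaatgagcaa
COS3, chrXIII:8081-8140, plus strand: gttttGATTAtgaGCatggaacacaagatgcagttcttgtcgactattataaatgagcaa

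At 37 °C, 36 of the 69 tested members were higher in the knockout than in wild type and 6 were lower, where 59.8% of all genes tested were called in either direction (30.5% higher and 29.2% lower). The median log2 fold change was 0.61 over the tested members and 0.01 over all genes tested. Among the 44 members that met the count minimum in all 4 groups, 23 were higher and 5 lower. Of the 52 tested members with no near-identical copy, 26 were higher and 4 lower, and of the 16 with one, 9 were higher and 2 lower. Among the 9 are YPR204W, MAL32 and MAL12, which met the count minimum only in knockout groups and so had to be high there. Both splits include members that did not meet the minimum in all 4 groups, and they are given as a description. The next 6 numbers inward on each arm, 192 rows of which 158 were tested, gave 62 higher and 34 lower with a median of 0.17.

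In wild type, warming from 30 to 37 °C gave 6 higher and 12 lower members, where 32.8% of all genes tested were called (15.7% higher and 17.1% lower). In the knockout the same step gave 25 higher and 6 lower members, where 59.1% of all genes were called (30.9% higher and 28.2% lower). The medians were -0.11 in wild type and 0.40 in the knockout, against 0.01 and 0.04 over all genes tested. With scaling by library size alone, which moves the median of all genes to 0.13 and 0.27, the splits became 8 higher and 10 lower in wild type and 35 higher and 3 lower in the knockout. The count of members in wild type fell when any wild type library was left out, and so did the count over all genes tested.

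The interaction, which is the knockout's log2 response to 37 °C minus that of wild type, was higher for 21 members and lower for 2, where 33.6% of all genes were called (16.4% higher and 17.2% lower). Its median was 0.42 over the tested members and 0.01 over all genes tested. At 30 °C the knockout had 9 higher and 7 lower members, where 29.6% of all genes were called (14.6% higher and 15% lower), and the medians were 0.05 and -0.00. Each group enters 3 of the 5 comparisons, so their results are not independent. The 4 libraries of the temperature comparison in wild type are not those of the same comparison in the knockout.

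**Figure D2:**
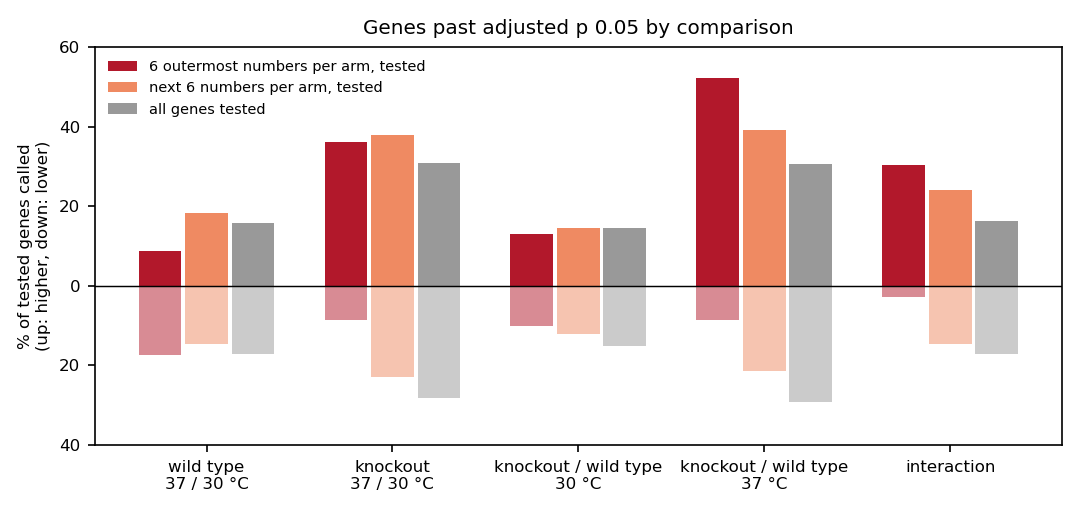
Share of tested genes called higher (upward bars) or lower (downward, paler bars) in each of the 5 comparisons, for the 69 tested genes of the 6 outermost numbers, 158 tested genes of the next 6 numbers and 5667 genes tested in all. At 37 °C, knockout against wild type, 52.2% of the outermost genes are higher, against 39.2% of the next genes and 30.5% of all.

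Low level goes with this lean in genes elsewhere too. Of other tested genes with a mean under 10 CPM, 39.6% were higher and 5.72% lower in the knockout than in wild type at 37 °C, beside 51.5% and 9.09% of the 33 members at that level. At 10 to 50 CPM the shares were 38.6% higher and 9.98% lower for other genes and 44.0% and 12% for 25 members. Above 50 CPM they were 24.7% and 42.8% for other genes, while 8 of 11 members were higher and 0 were lower. In wild type, 18.2% of the members under 10 CPM were lower at 37 °C, beside 2.76% of other genes at that level. The part of level in the members' result was not tested.

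Within the outermost genes, the share called did not follow the distance from the end in 1 direction. In the knockout against wild type at 37 °C, 8 of 14 tested members within 5 kb of the end were higher, as were 11 of 21 at 5 to 10 kb, 7 of 19 at 10 to 15 kb and 9 of 14 farther in. Of the 32 rows with the outermost number on their arm, 12 were at 0 and 8 were tested, of which 6 were higher and 0 lower. A Y′ element is annotated in the end of 17 arms, where 19 of 33 tested members were higher and 3 lower. On the other 15 arms 17 of 36 were higher and 3 lower. Members that met the count minimum only in knockout groups, and so had to be high there, are included in these counts.

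The COS family has 9 members here, and each of the 7 that could be tested was higher in the knockout than in wild type at 37 °C, with a median log2 fold change of 2.16. Each of the 7 also had a higher interaction, with a median of 1.65. Over all genes tested, 30.5% were higher in the knockout at 37 °C and 16.4% had a higher interaction. In wild type 4 of the 7 were lower at 37 °C and 0 were higher, beside 17.1% lower over all genes tested. In the knockout 3 were higher at 37 °C and 0 were lower. That is 42.9% higher, beside 30.9% over all genes tested, so this count is not read as a result about the family. Summed over the 9 COS rows, the levels were 138 and 135 CPM in wild type at 30 °C, 98.7 and 101 at 37 °C, 149 and 162 in knockout cells at 30 °C, and 182 and 213 at 37 °C. With DESeq2, 6 of the 7 remained higher in the knockout at 37 °C and 5 kept a higher interaction. COS1, COS5 and COS7 have 28.9%, 17.0% and 33.4% unique windows, so the 7 may not be separate measurements.

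COS8, at the left end of chromosome VIII (R64, 6401 to 7546, plus strand), has 82.6% unique windows, and its 4 calls held in each alternative run. Its levels were 18.1 and 17.7 CPM in wild type at 30 °C, 10.8 and 8.49 at 37 °C, 39.8 and 44.2 in knockout cells at 30 °C, and 40.8 and 45.2 at 37 °C. Both knockout groups thus lay above both wild type groups with no overlap, and within wild type the warm libraries were the lower. The knockout was higher by 1.23 ± 0.14 at 30 °C (edgeR, adjusted p = 5.37e-05) and by 2.16 ± 0.15 at 37 °C (adjusted p = 1.79e-07). Warming lowered COS8 in wild type (-0.89 ± 0.18, adjusted p = 0.0023) and gave 0.04 ± 0.11 in the knockout.

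COS1, on the left end of chromosome XIV (8330 to 9475, plus strand), had the same order of groups. Its levels were 7.36 and 7.43 CPM in wild type at 30 °C, 3.22 and 1.51 at 37 °C, 12.9 and 15 in knockout cells at 30 °C, and 13.5 and 14.5 at 37 °C. The knockout was higher by 0.91 ± 0.22 at 30 °C (edgeR, adjusted p = 0.00827) and by 2.56 ± 0.27 at 37 °C (adjusted p = 6.07e-06). The 2 wild type libraries at 37 °C differed, and without replicate 1 of that group the fall in wild type was -2.27 in place of -1.64 and the difference at 37 °C was 3.18. The call at 30 °C was lost without replicate 1 or 2 of wild type at 30 °C or replicate 2 of the knockout at 30 °C (0.79 to 1.02 over the fits that leave out a library), and with DESeq2.

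COS12 and COS5, which have means under 5 CPM and were chosen after their values were seen, fell furthest of the COS genes in wild type. COS12 lies at the left end of chromosome VII (2790 to 3932, plus strand) and has 100% unique windows. It had 6.47 and 3.51 CPM in wild type at 30 °C, 0.947 and 0.943 at 37 °C, 4.09 and 5.69 in knockout cells at 30 °C, and 7.50 and 8.10 at 37 °C. COS5 has 17.0% unique windows and 95.6% coding identity to COS7, so its values may include or lack reads of a copy. It had 4.01 and 3.92 CPM, 0.758 and 0.566, 4.68 and 5.88, and 6.04 and 6.75 in the same order. In both genes the wild type libraries at 37 °C, with 3 to 5 counts each, lay below all others. The falls in wild type were -2.35 ± 0.47 for COS12 and -2.54 ± 0.45 for COS5, and the differences between genotypes at 37 °C were 3.02 ± 0.41 and 3.23 ± 0.39 (edgeR, adjusted p = 4e-05 and 1.52e-05).

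COS10 and COS7 rose in the warm knockout. COS10 (chromosome XIV right end, 779916 to 781040, plus strand, 100% unique windows) had 19.4 and 18.6 CPM in wild type at 30 °C, 14.6 and 14.3 at 37 °C, 16.6 and 12.5 in knockout cells at 30 °C, and 29.6 and 33.1 at 37 °C. The warm knockout libraries lay above the rest, and the rise was 1.11 ± 0.15 (edgeR, adjusted p = 3.85e-05). COS7, again chosen after its values were seen, has 33.4% unique windows. It had 6.47 and 2.89, 2.08 and 2.83, 4.29 and 4.55, and 7.50 and 8.43 CPM in the same order. Its rise in the knockout was 0.85 ± 0.30 (adjusted p = 0.0264). That call was lost without either knockout library at 30 °C, without replicate 2 at 37 °C (0.76 to 0.91) and with DESeq2. COS7's change in wild type was of like size, -0.90 ± 0.40, and was not called (adjusted p = 0.106). COS7's interaction of 1.75 was 1.08 without replicate 1 of wild type at 30 °C, and that call was lost there. It was also lost without replicate 1 of wild type at 37 °C, without replicate 1 of the knockout at 30 °C and with DESeq2.

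COS6, with 61.7% unique windows, had the highest COS level, 66.5 CPM per kb of gene. Its difference between genotypes at 37 °C was the smallest among the tested COS members. Its levels were 76.3 and 80.5 CPM in wild type at 30 °C, 66.3 and 72.2 at 37 °C, 66.6 and 73.8 in knockout cells at 30 °C, and 76.5 and 97.2 at 37 °C. It was higher in the knockout at 37 °C by 0.33 ± 0.11 (edgeR, adjusted p = 0.0221), a call that needed replicate 2 of that group (0.13 without it). The call was also lost without either wild type library at 37 °C and with DESeq2. COS9, farther in on chromosome XI and so outside the 186, was not called in any of the 5 comparisons (33.0 and 30.1, 27.1 and 25.1, 28.1 and 29.6, 25.3 and 24.8 CPM).

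**Figure D3:**
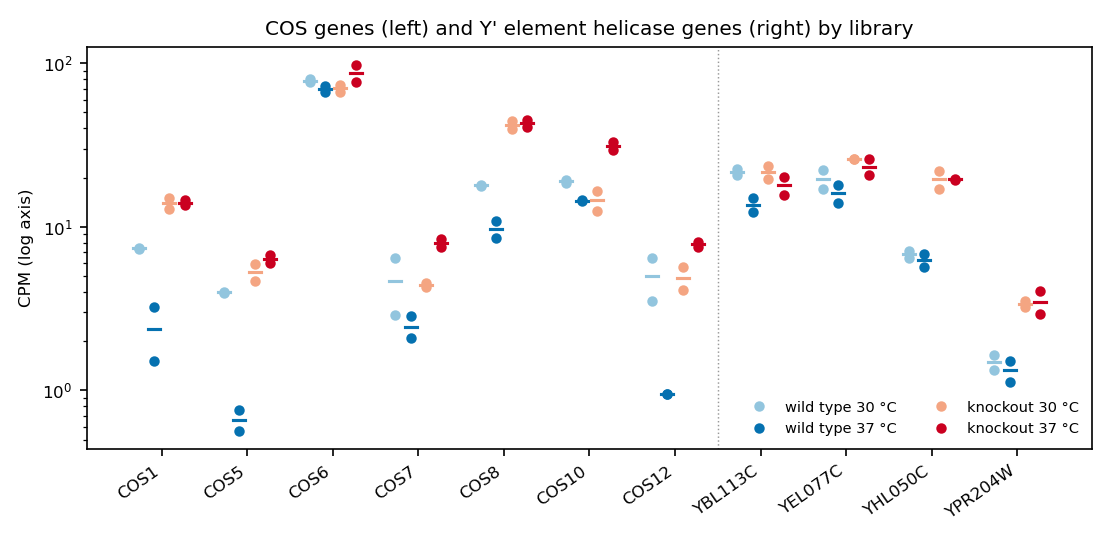
CPM (log axis) of the 7 tested COS genes and the 4 tested Y′ element helicase genes, 1 point per library and a short line at the mean of the 2 libraries of each group. COS12, COS5 and COS1 drop in wild type at 37 °C, and YHL050C and YPR204W lie higher in both knockout groups.

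The promoters of most COS genes are themselves near-copies. Over the 300 bases from 250 before the gene start to 50 after it, COS1 and COS5 share 99.3% of positions and COS1 and COS8 share 97.3%, although their coding identity is 90.6% and 83.9%. COS12 and COS10 have other promoters, with 54.0% and 47.1% identity to COS1. The windows of COS1, COS8 and COS12 are shown because those of COS1 and COS8 are near-identical and that of COS12 is not, while each gene was lower in wild type at 37 °C. Capitals mark a match to the stress response element AGGGG, bound by the general stress factors Msn2 and Msn4, here read on the other strand as CCCCT.
COS1, chrXIV:8080-8379, plus strand: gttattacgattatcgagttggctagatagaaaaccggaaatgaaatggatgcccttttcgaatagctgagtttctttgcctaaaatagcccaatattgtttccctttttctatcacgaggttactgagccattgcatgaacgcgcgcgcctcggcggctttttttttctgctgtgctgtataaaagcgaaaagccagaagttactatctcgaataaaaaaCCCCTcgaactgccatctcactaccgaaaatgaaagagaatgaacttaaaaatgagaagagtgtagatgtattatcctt
COS8, chrVIII:6151-6450, plus strand: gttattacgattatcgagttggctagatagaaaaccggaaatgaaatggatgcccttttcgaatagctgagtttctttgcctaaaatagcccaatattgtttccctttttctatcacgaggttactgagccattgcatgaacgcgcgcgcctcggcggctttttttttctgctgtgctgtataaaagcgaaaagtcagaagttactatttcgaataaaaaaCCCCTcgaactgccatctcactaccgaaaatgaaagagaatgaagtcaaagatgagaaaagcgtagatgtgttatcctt
COS12, chrVII:2540-2839, plus strand: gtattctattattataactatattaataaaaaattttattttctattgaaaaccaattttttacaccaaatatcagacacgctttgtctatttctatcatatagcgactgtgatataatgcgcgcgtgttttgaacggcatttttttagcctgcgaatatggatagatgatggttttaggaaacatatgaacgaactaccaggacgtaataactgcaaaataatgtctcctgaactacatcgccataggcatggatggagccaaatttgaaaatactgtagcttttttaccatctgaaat

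The match stands 29 bases before the start of COS1, COS5 and COS8, and the COS12 window holds none. In all promoters of that length, 21.7% of 5985 held AGGGG on either strand, as did 16 of 68 tested members (23.5%). It was present in 7 of the 12 members lower in wild type at 37 °C and in 10 of the 21 with a higher interaction, but COS1, COS5 and COS8 in both sets, and COS6 and COS7 in the second, have promoters that are copies (90.2% to 99.3% identity to COS1) and so are not separate cases. The heat shock element GAANNTTC, the Gcn4 element TGACTC and the sterol response element TCGTATA, each searched on both strands, were found in 8.82%, 2.94% and 2.94% of tested members and in 11.8%, 8.0% and 4.14% of all promoters. A match is a description of the letters in the window.

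Genes inside Y′ elements encode helicase-like proteins and are known from cells that survive without telomerase. The list holds 22 members, of which 7 were at 0 and 4 were tested. At 30 °C 2 of the 4 were higher in the knockout, at 37 °C 3 of 4, and 0 were lower, beside 14.6% and 30.5% higher over all genes tested. YPR204W, counted at both temperatures, met the count minimum only in the knockout groups and so had to be high there. That leaves YHL050C at 30 °C, and YHL050C and YEL077C at 37 °C. YBL113C passed at neither temperature. With DESeq2, 1 of 4 was higher at each temperature. Interactions ran from 0.11 for YHL050C to 0.42 for YBL113C (edgeR, adjusted p = 0.807 and 0.217). Over the 22 rows the summed level was 56.4 and 48.7 CPM in wild type at 30 °C, 41.7 and 36.6 at 37 °C, 70.7 and 78.5 in knockout cells at 30 °C, and 62.2 and 72.2 at 37 °C. These rows share sequence with one another (11 to 17 copies for YEL077C, YBL113C, YHL050C and YPR204W), so which element a read came from is uncertain, and gene copy number was not measured in these files.

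YHL050C, next to the left end of chromosome VIII (445 to 3311, minus strand), carried the largest of these differences. It had 7.14 and 6.40 CPM in wild type at 30 °C, 5.68 and 6.79 at 37 °C, 17.0 and 22.0 in knockout cells at 30 °C, and 19.6 and 19.4 at 37 °C. The genotypes did not overlap, and the temperatures did within each genotype. The knockout was higher by 1.53 ± 0.20 at 30 °C (edgeR, adjusted p = 0.000205) and by 1.64 ± 0.20 at 37 °C (adjusted p = 1.67e-05).

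YPR204W, at the right end of chromosome XVI (944603 to 947701, plus strand) and named after its values were seen, had 1.34 and 1.65, 1.52 and 1.13, 3.51 and 3.22, and 2.93 and 4.05 CPM in the same order. The knockout was higher by 1.15 ± 0.40 at 30 °C and by 1.39 ± 0.39 at 37 °C (edgeR, adjusted p = 0.0449 and 0.00738). YPR204W had 6 to 8 counts in the wild type libraries and 16 to 24 in the knockout libraries. It met the count minimum only in the knockout groups and so had to be high there, and these differences are given as a description. The call at 30 °C was lost in 9 of 15 other settings, among them leaving out any library of wild type or of the knockout at 30 °C (1.02 to 1.31). That at 37 °C was lost without replicate 2 of either genotype at 37 °C and with DESeq2. With 0.885% unique windows its reads may belong to other elements.

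YEL077C (chromosome V left end) had 22.3 and 17.1, 18 and 14.0, 26.1 and 25.8, and 20.7 and 26.0 CPM, and was higher in the knockout at 37 °C by 0.55 ± 0.18 (edgeR, adjusted p = 0.0174). That call was lost without replicate 2 of either genotype at 37 °C (0.36 to 0.72) and with DESeq2. YBL113C (chromosome II left end), which overlaps YBL112C on the same strand, had 22.5 and 20.8, 15 and 12.3, 19.5 and 23.5, and 15.7 and 20.2 CPM. It was lower at 37 °C in wild type by -0.67 ± 0.18 (adjusted p = 0.0136), a call that needed replicate 1 of wild type at 30 °C and replicate 2 at 37 °C (-0.81 to -0.52). The same call was lost with DESeq2.

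Of the 16 members on the list of sugar uptake and use 7 were tested, of which 5 were higher and 0 lower in the knockout at 37 °C, both against the knockout at 30 °C and against wild type at 37 °C. Over all genes tested 30.9% and 30.5% were higher. The 5 were HXK1 and 4 maltose genes, and the tested HXT9 and MAN2, genes of a hexose transporter and a putative mannitol dehydrogenase, did not pass (-0.21 and 0.15 on warming in the knockout). MAL32 and MAL12 among the 5 met the count minimum only in the warm knockout and so had to be high there, which leaves HXK1, MAL31 and MAL33. HXK1 encodes hexokinase 1, which is repressed by glucose, and lies on the right end of chromosome VI (253592 to 255049, minus strand). Its mean level per length was 219 CPM per kb, second among the members to HYR1 at 274 CPM per kb. Its levels were 58.0 and 72.0 CPM in wild type at 30 °C, 129 and 126 at 37 °C, 179 and 205 in knockout cells at 30 °C, and 554 and 1230 at 37 °C. The 4 groups did not overlap, and the 2 warm knockout libraries lay far apart.

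HXK1 was higher in the knockout by 1.56 ± 0.30 at 30 °C (edgeR, adjusted p = 0.00215) and by 2.81 ± 0.27 at 37 °C (adjusted p = 2.56e-06), and it rose on warming in the knockout by 2.22 ± 0.26 (adjusted p = 1.17e-05). Without replicate 2 of the warm knockout the last 2 values were 2.11 and 1.52. The rise in wild type (0.97 ± 0.31, adjusted p = 0.03) was lost without any 1 library of wild type or of the knockout at 30 °C (0.82 to 1.13). The interaction (1.25 ± 0.41, adjusted p = 0.0311) was lost without 5 of those 6 libraries, all but wild type replicate 1 at 30 °C, and was 0.55 without replicate 2 of the warm knockout. The rise in wild type and the interaction were also lost with DESeq2 and with no low-count filter.

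The MAL3 locus on the right end of chromosome II holds the maltose permease gene MAL31, the maltase gene MAL32 and the activator gene MAL33. MAL31 had 40.1 and 52.6 CPM in wild type at 30 °C, 40.7 and 38.7 at 37 °C, 38.4 and 45.3 in knockout cells at 30 °C, and 80.5 and 135 at 37 °C. The warm knockout libraries lay above the other 6, and the rise there was 1.37 ± 0.20 (edgeR, adjusted p = 8.31e-05). MAL33 had 10.7 and 13.0, 15.5 and 13.6, 9.94 and 9.11, and 19.4 and 39.5 CPM. Its rise in the knockout was 1.64 ± 0.29 (adjusted p = 0.000383), and 1.02 without replicate 2 of the warm knockout. Its difference between genotypes at 37 °C (1.03 ± 0.27) was lost without that library (0.40) and without wild type replicate 2 at 37 °C, and its interaction was lost without any library but replicate 1 of the warm knockout (0.72 to 1.73). The interaction was also lost with limma-voom and with no low-count filter.

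MAL32, with 0.189 to 4.22 CPM over the libraries, and MAL12, with 0.189 to 2.75 CPM, were higher in the warm knockout than in warm wild type by 2.17 ± 0.67 and 3.16 ± 0.57 (edgeR, adjusted p = 0.0139 and 0.000367). Both were chosen after their values were seen, had 1 to 8 counts in each library outside the warm knockout and passed the count minimum through that group alone, so these differences are given as a description. The value of MAL32 was 3.84 without replicate 1 of wild type at 37 °C, and its call was lost without replicate 2 of wild type (1.39) or of the knockout (1.42) at 37 °C, and with DESeq2. The coding sequences are 99.5% identical, so reads of the pair may be split between the copies. Summed over the 16 rows, the level was 111 and 142, 191 and 182, 234 and 269, and 663 and 1420 CPM, most of which was HXK1. Without HXK1 the sum over the other 185 members was 1490 to 1550 CPM in the 6 libraries outside the warm knockout and 1930 and 2140 CPM in the warm knockout, where with it the warm knockout reached 2480 and 3370 CPM.

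Neighbouring genes at some ends moved in the same direction, although the arms shown were chosen after their values were seen. Over all genes tested, 30.5% were higher and 29.2% lower in the knockout at 37 °C. Other arms did not move together. In that comparison 0 of 5 tested members were called at the right end of chromosome XI, and 1 of 4 was higher at the right end of chromosome XVI. At the right end of chromosome III, 3 of 6 members were tested, and the 3 were lower in the knockout at 37 °C. AAD3, a putative aryl-alcohol dehydrogenase gene (313890 to 314981, plus strand), had 24.1 and 20.4 CPM in wild type at 30 °C, 20.3 and 14.7 at 37 °C, 8.38 and 9.30 in knockout cells at 30 °C, and 6.59 and 8.60 at 37 °C. RDS1, next to it (310958 to 313456, plus strand), encodes a zinc cluster protein involved in drug resistance and had 24.1 and 20.4, 18.8 and 25.8, 7.41 and 11.2, and 7.32 and 6.41 CPM. In both genes the knockout libraries lay below every wild type library.

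At 30 °C AAD3 was lower in the knockout by -1.33 ± 0.21 and RDS1 by -1.25 ± 0.23 (edgeR, adjusted p = 0.000569 and 0.00138). At 37 °C the values were -1.19 ± 0.21 and -1.70 ± 0.23 (adjusted p = 0.000417 and 4.11e-05). YCR102C, an uncharacterized gene 11153 bp from the end, had 10.3 and 6.19, 6.63 and 6.79, 6.04 and 3.22, and 2.38 and 1.18 CPM, and was lower in the knockout at 37 °C by -1.92 ± 0.42 (adjusted p = 0.00175). Without replicate 1 of the warm knockout that value was -2.51. Its fall on warming in the knockout (-1.38 ± 0.46, adjusted p = 0.0209) was lost without replicate 1 at 30 °C or replicate 2 at 37 °C.

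The fluoride exporter genes FEX1 and FEX2, 99.3% identical and on chromosomes XV and XVI, were also lower in the knockout at 37 °C, and were named after their values were seen. FEX1 had 5.13 and 6.60, 8.33 and 5.85, 2.53 and 2.85, and 3.29 and 4.05 CPM, and FEX2 had 3.57 and 5.78, 4.55 and 6.41, 2.34 and 2.66, and 2.75 and 2.53 CPM. The differences at 37 °C were -0.94 ± 0.28 and -1.05 ± 0.33 (edgeR, adjusted p = 0.0111 and 0.0145), and each was lost with DESeq2 and without 1 wild type library at 37 °C, replicate 1 for FEX1 (-1.19 to -0.69) and replicate 2 for FEX2 (-1.30 to -0.80). Reads of the pair may be split between the copies.

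On the right end of chromosome V, 4 of 6 members were tested and the 4 were higher in the knockout than in wild type at 37 °C. Over all genes tested 30.5% were higher there. PUG1, which encodes a plasma membrane transporter of porphyrins and heme (559454 to 560365, plus strand), had 3.12 and 4.13 CPM in wild type at 30 °C, 4.55 and 3.21 at 37 °C, 3.70 and 2.47 in knockout cells at 30 °C, and 15.9 and 20.1 at 37 °C. The warm knockout stood apart from the other 3 groups. PUG1 rose there by 2.54 ± 0.26 (edgeR, adjusted p = 3.15e-06), and its interaction of 2.46 ± 0.47 was the largest among members with a mean of at least 5 CPM.

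YER188W, uncharacterized, had 5.57 and 6.40, 3.79 and 2.64, 8.96 and 7.59, and 17.8 and 17.2 CPM. It was higher in the knockout at 37 °C by 2.43 ± 0.22 (edgeR, adjusted p = 1.75e-06). Its fall in wild type (-0.90 ± 0.29, adjusted p = 0.032) was lost without any of the 4 wild type libraries (-1.17 to -0.65), with library size scaling and with DESeq2. YER187W beside it, named after its values were seen, had 2.9 and 5.98, 0.947 and 1.32, 6.63 and 7.97, and 4.94 and 5.90 CPM and was higher in the knockout at 37 °C by 2.24 ± 0.43 (adjusted p = 0.000717). YER186C, at 41.7 to 64.8 CPM, was higher there by 0.26 ± 0.10 (adjusted p = 0.0446). It did not pass in 11 of 16 other settings, among them leaving out any library but replicate 2 of the warm knockout (0.13 to 0.35).

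At the right end of chromosome IX the 4 tested members were likewise higher in the knockout at 37 °C, beside 30.5% of all genes tested. YIR042C, uncharacterized and the outermost row on its arm (435273 to 435983, minus strand), had 8.03 and 10.7 CPM in wild type at 30 °C, 1.33 and 1.70 at 37 °C, 10.3 and 12 in knockout cells at 30 °C, and 6.41 and 9.78 at 37 °C. Warm wild type alone was low. It fell there by -2.62 ± 0.37 (edgeR, adjusted p = 0.000169), gave -0.45 ± 0.23 in the knockout, and had an interaction of 2.17 ± 0.45 (adjusted p = 0.00323).

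Its neighbours on that arm rose in the knockout. YPS6, a gene for an aspartic protease of the yapsin family, had 7.36 and 10.7, 14.8 and 8.49, 9.55 and 14.4, and 27.3 and 29.7 CPM, a rise on warming of 1.25 ± 0.23 (edgeR, adjusted p = 0.000418). GTT1, a glutathione transferase gene named after its values were seen, had 32.8 and 40.0, 32.8 and 38.9, 42.3 and 35.5, and 78.5 and 106 CPM, a rise of 1.25 ± 0.15 (adjusted p = 1.56e-05). HYR1, which encodes a thiol peroxidase that senses peroxide, had 105 and 103, 126 and 122, 126 and 116, and 184 and 195 CPM and rose by 0.64 ± 0.07 (adjusted p = 8.27e-06). HYR1's calls in wild type and at 30 °C (0.25 and 0.22) were each lost when any 1 of the 4 wild type libraries was left out (0.23 to 0.28 and 0.16 to 0.28), and with DESeq2. The second was also lost without replicate 1 of the knockout at 30 °C and with limma-voom.

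**Figure D4:**
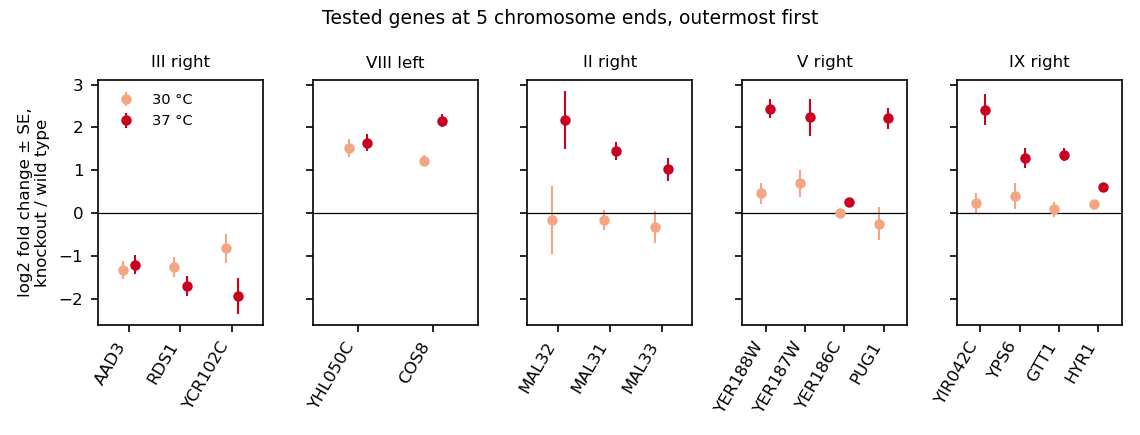
Log2 fold change, knockout over wild type, with SE bars, at 30 °C (pale) and 37 °C (dark) for the tested genes at 5 chromosome ends, outermost first in each panel. Values are below 0 on the right end of chromosome III at both temperatures and above 0 at 37 °C in the other 4 panels.

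Single genes on other arms covered a range of functions. MSC1, annotated as a double-strand break repair enhancer, lies at the left end of chromosome XIII and had 67.3 and 65 CPM in wild type at 30 °C, 81.8 and 76.0 at 37 °C, 50.5 and 54.8 in knockout cells at 30 °C, and 162 and 226 at 37 °C. It rose in the knockout by 1.88 ± 0.14 (edgeR, adjusted p = 1.98e-07), with an interaction of 1.63 ± 0.20. CSS1, a gene for a secreted protein on the left end of chromosome IX, had 11.8 and 7.84, 10.6 and 7.73, 39.8 and 35.5, and 24.9 and 25.3 CPM. The knockout lay above wild type at both temperatures, by 1.94 ± 0.18 and 1.45 ± 0.19 (adjusted p = 1.35e-05 and 3.43e-05). Its fall on warming in the knockout (-0.58 ± 0.15, adjusted p = 0.00411) was lost with library size scaling.

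IRC7, which encodes a beta-lyase acting on cysteine conjugates, was lower in the knockout at 30 °C by -0.81 ± 0.11 (edgeR, adjusted p = 0.000186), and gave 0.02 ± 0.10 at 37 °C. It had 192 and 185 CPM in wild type at 30 °C, 147 and 113 at 37 °C, 113 and 102 in knockout cells at 30 °C, and 129 and 134 at 37 °C. ERO1, for the oxidase that forms disulfide bonds in the endoplasmic reticulum, had 168 and 162, 227 and 232, 135 and 122, and 217 and 196 CPM and rose on warming in both genotypes (0.48 ± 0.08 and 0.68 ± 0.08, adjusted p = 0.000447 and 8.97e-06). RPN12, for a proteasome subunit, had 98.3 to 124 CPM and was called in none of the 5 comparisons.

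Of 11 members on the metal, arsenic and drug transport list 8 were tested, of which 3 were higher on warming in the knockout (PUG1, FRE2 and NFT1). That is 37.5%, near the 30.9% of all genes tested, so the count says nothing of the list. FRE2, a ferric reductase gene, had 16.3 and 17.5, 18 and 12.3, 15.2 and 10.8, and 20.3 and 26.0 CPM and rose by 0.84 ± 0.21 (edgeR, adjusted p = 0.00393), lost without replicate 2 of the knockout at 30 °C (0.62 to 1.10). NFT1, for an ABC transporter, rose by 0.40 ± 0.14 (adjusted p = 0.0267) from 19.5 and 21.2 to 26.9 and 27.0 CPM, lost without any 1 of those 4 libraries (0.35 to 0.47) and with DESeq2. ARR1, the activator of arsenic resistance, stayed uncalled in the 5 comparisons at 37.5 to 45.3 CPM, as did the flocculin gene FLO10 at 18.4 to 30.1 CPM.

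AAD4, a relative of AAD3 on chromosome IV, did not follow it. Its levels were 13.2 and 9.49, 7.39 and 11.1, 15.2 and 15, and 18.7 and 15 CPM, and it was higher in the knockout at 37 °C by 0.86 ± 0.22 (edgeR, adjusted p = 0.00458), lost without replicate 1 of wild type at 37 °C (0.57 to 1.16). The 2 members with a lower interaction were named after their values were seen. MHT1, for a methyltransferase that forms methionine from S-methylmethionine, had 16.5 and 14.4, 14.2 and 14.9, 24.2 and 23.1, and 8.78 and 9.95 CPM, with an interaction of -1.25 ± 0.23 (adjusted p = 0.00144). YML131W, uncharacterized here, had 42.4 and 34.0, 39.4 and 37.9, 78.5 and 73.6, and 50.9 and 46.0 CPM, with an interaction of -0.67 ± 0.16 (adjusted p = 0.00738). Both were highest in the knockout at 30 °C.

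**Figure D5:**
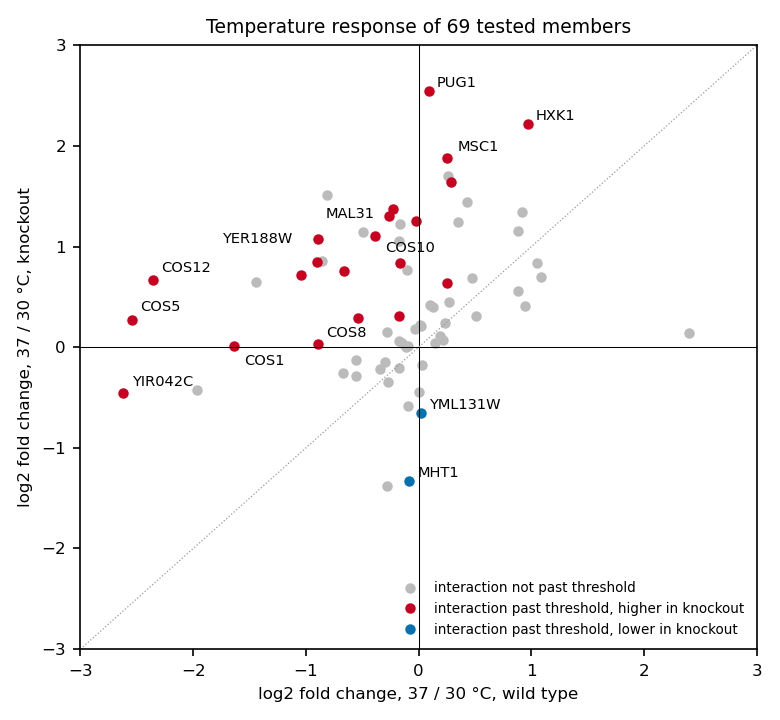
Log2 fold change on warming from 30 to 37 °C in the knockout (vertical) against wild type (horizontal) for the 69 tested members, coloured by the call of the interaction, with the dotted line where both genotypes change alike. The 21 red points lie above the line, with COS12, COS5 and YIR042C at the far left, and MHT1 and YML131W lie below it.

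Some other families had no tested member, and the reason for their low counts was not tested. The 17 seripauperin genes summed to 1.86 to 4.39 CPM over all libraries, with 6 at 0 and 0 tested. The 3 enolase-related genes and the 1 Hsp31-like gene among the members had up to 1.28 and 0.337 CPM in sum. The silent mating genes HMLALPHA1 and HMLALPHA2, copies of the expressed mating locus, had 0 counts and 1 count in all, with 0% unique windows. HMRA1, outside the 186 and with 100% unique windows, had 22.1 and 17.1, 17.0 and 15.5, 15.8 and 14.8, and 19.9 and 22.8 CPM. It was higher in the knockout than in wild type at 37 °C by 0.40 (edgeR, adjusted p = 0.0465). Those windows are unique in R64, and the mating locus of the strains used was not read here. Whether the HMRA1 reads came from the silent copy or from an expressed mating locus was not tested.

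Of the 16 genes on the list of silencing and telomere-binding factors, 2 were higher and 5 lower in the knockout at 37 °C, which is 43.8% called beside 59.8% of all genes tested. At 30 °C 0 were higher and 3 lower, 18.8% beside 29.6%. SIR3 rose on warming in both genotypes, by 0.43 in wild type and 0.71 in the knockout (edgeR, adjusted p = 0.00654 and 4.56e-05). At 37 °C SIR3 was higher in the knockout than in wild type (0.29, adjusted p = 0.0173). SIR2 and SIR4 were lower there (-0.33 and -0.38, adjusted p = 0.00724 and 0.000681). RAP1 was lower in the knockout at both temperatures, by -0.32 and -0.55 (adjusted p = 0.00363 and 2.53e-05). SIR1, which acts at the silent mating loci and is itself among the 186 on the right end of chromosome XI, had 20.1 and 20.6, 26.3 and 17.4, 16.6 and 13.8, and 18.1 and 22.4 CPM and was called in none of the 5 comparisons. A list of 28 general stress genes was drawn up with no member on it, so it does not say which of the 186 respond to stress. Of these 28, 27 were higher and 1 lower in the knockout at 37 °C. Over all genes tested 30.5% were higher and 29.2% lower. The part of either list in the members' changes was not tested.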

How the data were processed

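mRNA libraries (Kapa mRNA HyperPrep, from Trizol total RNA, per the labels' protocols) were deposited by the authors as 1 table of read counts per gene, not normalized. The submitters' processing notes name STAR, HTSeq, R64 and sacCer3, and the handling of strand and of reads that match several places is not given in the sources used here. Groups followed the labels. Genes passing edgeR's filterByExpr (minimum count 10, total 15) were fitted over all 8 libraries in a model of 4 groups with TMM scaling and the quasi-likelihood test (edgeR 4.0.16, R 4.3.3, 4 residual degrees of freedom, biological coefficient of variation 6.19%), and p-values were adjusted by Benjamini-Hochberg over 5667 genes. TMM factors ran from 0.9181 to 1.1122. The fit was also run on simulated counts, with changes set only in genes with a mean above 5 CPM. That run says nothing of changes in members below that level or of reads shared between copies. Copies were found with blastn 2.17.0 and sequences were read from the RefSeq R64 genome.

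Alternatives were other scalings and filters, DESeq2 1.42.0, limma-voom (limma 3.58.1), the 4 libraries of a comparison alone, a replicate block, and each library left out. Same-numbered libraries were checked for pairing: correlations of their deviations between groups ran from -0.111 to 0.114, and the labels do not pair them. Among tested members with a mean of at least 5 CPM, the rule named the 6 largest called changes of each comparison (with no overlap between groups, except for the interaction), the 5 highest mean levels, and up to 3 members of each list by level. It gave 29 names, and others are said to be chosen after their values were seen. The members and lists were chosen with earlier results of these data known. Floors cover counting error only.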

Additional observations from a re-analysis of the deposited data

Results flagged for a closer look

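For 23 members the response to 37 °C differed between knockout and wild type in the test of the interaction itself (edgeR, adjusted p under 0.05), given here as the knockout's log2 change minus that of wild type. Among the COS genes the value was 3.02 for COS12, 2.82 for COS5, 1.75 for COS7, 1.65 for COS1, 1.5 for COS10, 0.93 for COS8 and 0.49 for COS6. At the right ends of chromosomes V and IX it was 2.46 for PUG1, 1.97 for YER188W, 2.17 for YIR042C, 1.28 for GTT1 and 0.39 for HYR1. In the sugar genes it was 1.6 for MAL31, 1.35 for MAL33 and 1.25 for HXK1. Elsewhere it was 1.63 for MSC1, 1.76 for YOL163W, 1.57 for SOA1, 1.41 for YDR541C, 1.0 for FRE2 and 0.83 for IRC7. The difference ran the other way in MHT1, at -1.25, and in YML131W, at -0.67. Several of these calls were lost under other settings: that of SOA1 with DESeq2, that of YOL163W in 7 of 15 and that of FRE2 in 5 of 16. For YOL163W these were DESeq2 and leaving out any library but replicate 1 of wild type at 30 °C or replicate 1 of the knockout at 37 °C (1.45 to 1.97). For FRE2 they were DESeq2 and leaving out replicate 1 or 2 of wild type at 30 °C, replicate 2 of wild type at 37 °C or replicate 2 of the knockout at 30 °C (0.73 to 1.28). The call was also lost in 9 of 16 settings for MAL33, 7 of 16 for HXK1 and COS6, 4 of 16 for COS7 and 3 of 16 for HYR1.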

How the results depend on the processing

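From edgeR to DESeq2, calls over all genes tested fell from 1858 to 1251 in wild type on warming and from 3347 to 2630 in the knockout. At 30 °C between genotypes they fell from 1680 to 1070. With DESeq2, the count of members called was 10 in wild type on warming (1 higher, 9 lower). It was 19 in the knockout on warming (15 higher, 4 lower) and 9 at 30 °C between genotypes (5 higher, 4 lower). With 1 library left out, the counts ran from 10 to 22 in wild type, 21 to 32 in the knockout, 12 to 21 at 30 °C, 32 to 44 at 37 °C and 17 to 30 for the interaction. Calls over all genes tested also moved with the library left out. With a replicate block over all groups the counts of members were 18, 30, 16, 42 and 24 in the same order, and the labels do not pair the samples. Of the 130 calls of members, 75 held in every setting run and 55 were lost in at least 1, and 0 changed direction. Without TMM factors the median log2 fold change over all genes tested became 0.13 in wild type, 0.27 in the knockout, 0.14 at 37 °C, 0.12 for the interaction and 0.01 at 30 °C. Low counts and shared sequence limit what can be said of the 117 members not tested. The causes of these differences were not tested.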
